A study of Mus musculus with 22 samples.

Results

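The comparison described here sets the hypothalamus of mice deficient in interleukin-6 (IL-6 KO, written KO below) against that of wild-type (WT) mice after an injection of lipopolysaccharide (LPS), the bacterial cell wall component that provokes inflammation and fever. The arrays were chosen by their labels: 7 labelled IL-6 KO LPS and 7 labelled WT LPS, 14 of the 22 arrays in the series. The other 8 arrays, 4 KO and 4 WT after saline, served as the background and helped to estimate the spread. All 19935 genes whose probe sets carried 1 gene symbol were tested, with no selection on their values. The design text of the series asks whether genes that differ in expression without IL-6 could account for a missing fever.

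All 4 groups were male C57bl6 mice, 9 to 12 weeks old, housed singly, and the WT mice were littermates of the KO mice from the same parents. LPS from Escherichia coli was given once into the peritoneum at 120 µg/kg, saline was the vehicle, and the mice were killed with CO2 3 h later. They were perfused with saline before the hypothalamus was collected, and 200 ng of total RNA was biotin-labelled for an Affymetrix array. The knockout is described only as a deficiency in IL-6: its allele, and the strain of its origin, are not given in the sources used here. No label states that every array held RNA of its own mouse, and each p-value rests on how much arrays of a group varied, which may be technical in part; their number limits the precision. The tissue is a mixture of cell types, so fewer cells of a type and less RNA per cell cannot be told apart.

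IL-6 is a cytokine of fever and of the acute-phase response. It binds its receptor Il6ra, the pair recruits the signal-transducing subunit gp130 (Il6st), and JAK kinases then phosphorylate the transcription factor STAT3, which drives acute-phase genes and its own inhibitor Socs3. In the brain, LPS also induces cyclooxygenase-2 (Ptgs2) and the prostaglandin E synthase Ptges in endothelial cells, and the prostaglandin E2 they make acts on hypothalamic neurons that set body temperature.

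The deposited values are log2 values with each probe set's median over the 22 arrays set to 0, so a positive value means more signal than on the median array and a negative value less. They hold no level of a gene: genes could not be ranked by abundance, dim genes could not be set aside, and the presence of hypothalamic marker genes could not be checked. Differences are KO minus WT from a limma fit over all 22 arrays with 1 mean per group and a term for the array block, arrays 1 to 11 or 12 to 22 by the numbers in the labels. The block was unequal between genotypes: the LPS arrays of the first block were 2 KO and 5 WT, and those of the second 5 KO and 2 WT. The block itself mattered, since 21.5% of all genes differed between the blocks at an adjusted p under 0.05. A gene is called here when its Benjamini-Hochberg adjusted p over all genes is under 0.05, and errors beside differences are standard errors (SE).

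After LPS, KO and WT hypothalamus differed by a call in 2 genes, both higher in KO: Abhd1 by 0.53 ± 0.047 (SE; 1.44-fold) and Galnt11 by 0.30 ± 0.048 (1.23-fold), with 7 arrays a group. These 2 calls were 0.01% of all genes, and no gene (0.0%) was called lower in KO. An unadjusted p under 0.05 was reached by 1030 genes (5.17%), 683 higher (3.43%) and 347 lower (1.74%). The genes with the smallest p on the lower side were Tmem252, Lcn2, Map3k8, Tgm2 and Sbno2, all with an adjusted p of 0.072 to 0.075, just outside the threshold. Lcn2, the acute-phase protein lipocalin-2, had the largest difference of all genes in either direction, -0.88 ± 0.16, or 1.85-fold lower in KO with a 95% interval of 1.46- to 2.33-fold. The 95% interval of a difference, not adjusted for the number of genes, had a median half-width of 0.11 over all genes. A call needed more than an interval that leaves out 0: Psmb5 at 0.26 ± 0.048 was not called. The lack of a call therefore does not show equal expression.

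**Figure D1:**
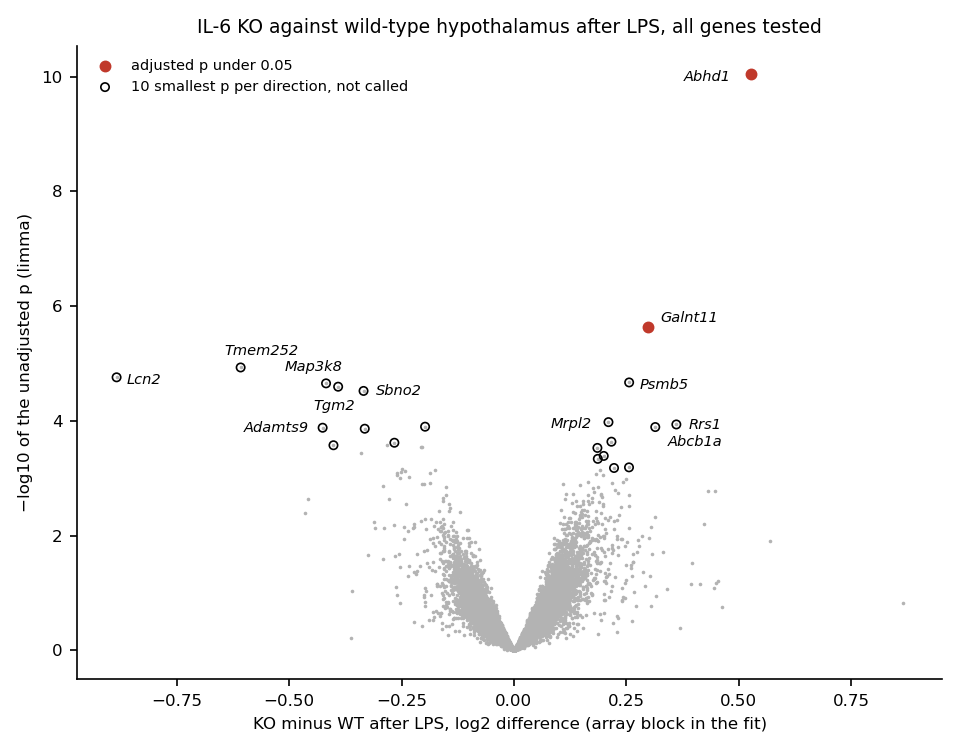
Each point is 1 of 19935 genes, with the KO minus WT difference after LPS (log2, array block in the fit) on the x axis and -log10 of the unadjusted limma p on the y axis. Red points are the 2 called genes, open circles the 10 genes with the smallest p in each direction that were not called. Abhd1 stands far above the rest, and Lcn2 lies farthest to the left at -0.88.

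The array block changed how many genes were called. Without it, 8 genes (0.0401%) were called, 4 in each direction: Abhd1, Galnt11, Psmb5 and Mrpl2 higher in KO, and Tmem252, Lcn2, Map3k8 and Tgm2 lower. In that fit the Lcn2 difference was -1.04 (adjusted p = 0.0164) and that of Tgm2 was -0.48 (adjusted p = 0.0231). With array quality weights 11 genes were called, and with the 14 LPS arrays alone only Abhd1 was. A within-block exact permutation test, two-sided over all 441 regroupings, was run for 18 genes, chosen with earlier results of these data known, and its p-values are unadjusted. Abhd1, Galnt11 and Map3k8 reached the smallest p it can give, 0.00227, and Lcn2, Tgm2 and Tmem252 gave 0.00454.

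Il6, the targeted gene, did not separate the genotypes. Its values were -0.0060 at the lowest, 0.18 at the median and 0.61 at the highest KO array after LPS, and -0.10, 0.074 and 0.28 on the WT arrays. The groups overlapped, and the highest values were those of KO arrays. The difference was 0.15 ± 0.075 (95% interval -0.0055 to 0.30; adjusted p = 0.963; exact permutation p = 0.22), and after saline it was -0.0030 ± 0.098. Il6 rose with LPS in KO by 0.36 (adjusted p = 0.0164), while the same contrast in WT gave 0.21 (adjusted p = 0.381); the difference between the 2 was 0.15 (unadjusted p = 0.20). Where the array's Il6 probes lie relative to the altered part of the gene is not stated in the labels, so these values check no label, and genotype was taken from the labels throughout.

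Some arrays stood apart in genes of tissue next to the hypothalamus. Ttr, a choroid plexus gene, reached 2.80 and 2.43 on WT LPS replicates 5 and 2 and 1.98 on KO LPS replicate 4, and Gh and Prl, pituitary hormones, reached 3.76 and 2.74 on KO LPS replicate 3 and 2.20 and 1.66 on KO LPS replicate 5. The mean of the 12 measured pituitary markers ran from -0.064 to 0.69 on KO arrays after LPS and from -0.12 to 0.088 on WT arrays, and that of the 14 choroid plexus and ependyma markers from -0.16 to 0.18 and from -0.089 to 0.25. When WT LPS replicate 5, KO LPS replicate 3, WT saline replicate 1 and KO saline replicate 2 were left out, 1 gene was called, Abhd1, and the Galnt11 difference was 0.29 (adjusted p = 0.104). Without those 4 arrays Lcn2 was at -0.98, Tmem252 at -0.67, Map3k8 at -0.44 and Tgm2 at -0.40, each with an adjusted p of 0.104. Those 4 arrays were chosen with earlier results known, and other arrays high in Ttr, Gh or Prl stayed in. As an alternative added after seeing the data, all 7 arrays with a value above 1 in any of these 3 genes were left out: those 4, WT LPS replicate 2 and KO LPS replicates 4 and 5. Abhd1 was then the 1 gene called, at 0.51, and Galnt11 was at 0.23 (adjusted p = 0.886), Lcn2 at -0.76 (adjusted p = 0.197), Tmem252 at -0.54, Map3k8 at -0.40 and Tgm2 at -0.32. The highest correlation between arrays was 0.601 on the centred values, so no array was a copy of another, and each was counted as its own sample. This does not show that each array held RNA of a separate mouse.

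Abhd1 encodes a protein of the alpha/beta hydrolase fold family. Its KO LPS arrays lay at 0.25 and 0.33 in the first block and at 0.092, 0.29, 0.19, 0.12 and 0.23 in the second. Its WT LPS arrays lay at -0.11, -0.32, -0.25, -0.26 and -0.088 in the first block and at -0.32 and -0.37 in the second. Every KO array was above every WT array, so the groups did not overlap over all arrays or within a block. The difference was 0.50 within arrays 1 to 11 and 0.53 within arrays 12 to 22, and the fit over all arrays gave an adjusted p of 1.81e-06. The saline arrays showed a difference of 0.59 ± 0.061, which was the 1 call of that comparison (0.00502% of all genes; 3.26% had an unadjusted p under 0.05), and the interaction, LPS difference minus saline difference, was -0.068 (unadjusted p = 0.36). LPS itself did not move Abhd1 by a call in either genotype.

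Galnt11 encodes an enzyme that starts mucin-type O-glycosylation. Its KO LPS arrays ran from -0.023 through a median of 0.13 to 0.32, and its WT LPS arrays from -0.37 through -0.22 to -0.032. The 2 groups did not overlap over all 14 arrays, although the lowest KO and the highest WT array were close. Within the blocks the differences were 0.32 and 0.30 (adjusted p = 0.0227 over all arrays). After saline the difference was 0.25 ± 0.062, close to that after LPS, but not called (adjusted p = 0.9999). The call after LPS rested on single arrays: without KO LPS replicate 1, 2 or 4, or WT LPS replicate 2, 4 or 6, the adjusted p rose to between 0.0519 and 0.179, with differences from 0.27 to 0.31.

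Both called genes are neighbours of Il6 on chromosome 5 in the RefSeq gene order of mouse assembly GRCm38.p6. Counted over measured genes from Il6, Galnt11 is at place -22 and Abhd1 at place 23. Within 20 Mb of Il6, 250 genes were measured, these 2 included. At an unadjusted p under 0.05, 14 of the 250 were higher (12 of 248 without these 2) and 11 were lower, where 3.43% and 1.74% of all genes were. The median difference was 0.0040 against 0.0030 over all genes. Differences there went both ways, from -0.23 to 0.53, so a median near 0 does not show that the region resembles the rest of the genome. Windows of 10 Mb (211 genes) and 40 Mb (345 genes) held the same 2 calls. The saline comparison uses other arrays of the same genotypes, and Abhd1 and Galnt11 were higher in KO there too. The part of their position beside the altered gene in these 2 differences was not tested.

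**Figure D2:**
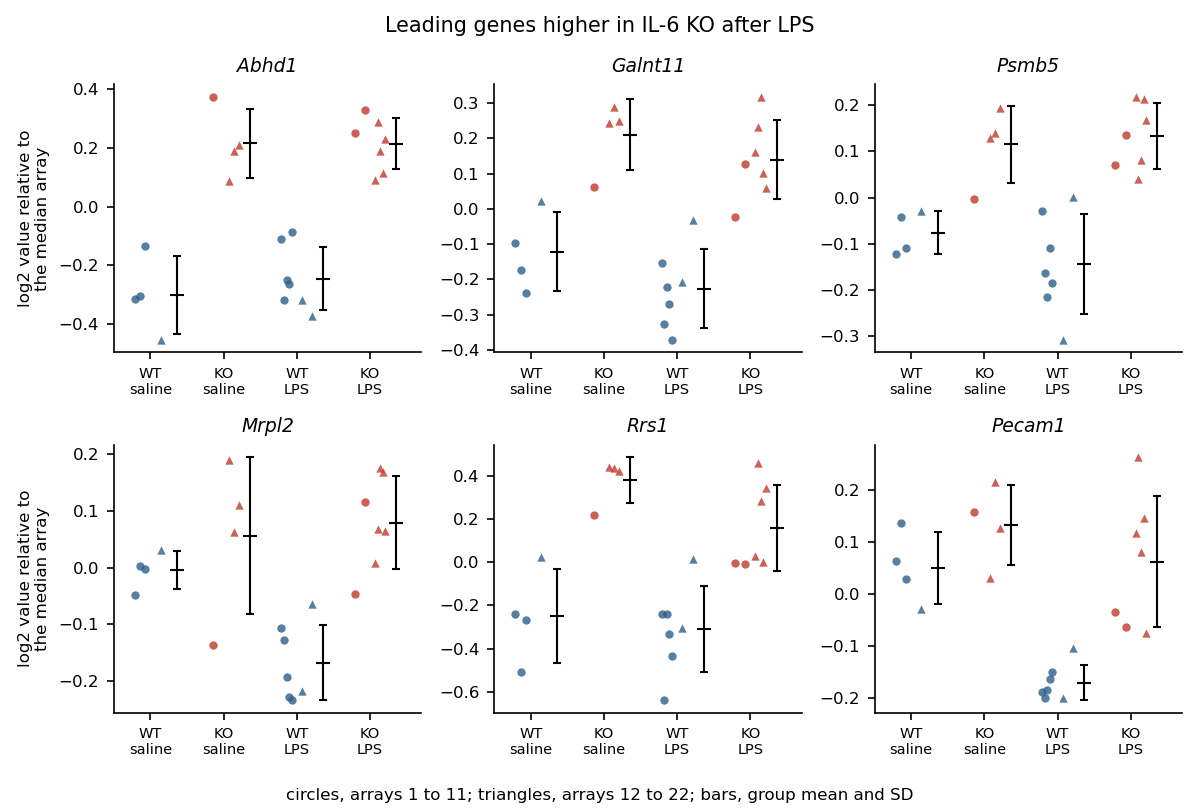
Log2 values relative to the median array (y axis) for Abhd1, Galnt11, Psmb5, Mrpl2, Rrs1 and Pecam1 in the 4 groups (x axis), with circles for arrays 1 to 11, triangles for arrays 12 to 22 and bars for the group mean and SD. After LPS all genes but Rrs1 are apart by genotype, and only Abhd1 and Galnt11 were called. After saline Abhd1 (by a similar 0.59), Galnt11, Psmb5 and Rrs1 are apart, while the Mrpl2 and Pecam1 groups overlap.

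All 7 KO arrays lay above all 7 WT arrays in 15 genes (0.0752% of all genes), among them Abhd1, Galnt11, Psmb5, Mrpl2, Pecam1 and Hebp1, and all 7 lay below in 11 genes (0.0552%), among them Lcn2, Map3k8, Adamts9 and Rasip1. Within each block separately, KO was entirely above WT in 54 genes (0.271%) and entirely below in 25 (0.125%).

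Of the 10 genes with the smallest p on the lower side, 9 rose with LPS in WT by a call, as did 1.68% of all genes, and the median LPS effect over the 10 was 0.76. In KO 6 of the 10 rose by a call and 1, Il23a, fell, with a median LPS effect of 0.43, and 1.23% of all genes were called higher. These LPS contrasts use the same LPS arrays as the KO minus WT comparison, so they describe the genes and add no separate support. None of the 10 was called between the genotypes.

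Lcn2 encodes lipocalin-2, a secreted protein that binds bacterial siderophores and an established marker of acute inflammation. Its WT LPS values were 1.05, 0.99, 1.33, 1.39 and 0.65 in the first block and 0.44 and 1.03 in the second. Its KO LPS values were 0.36 and 0.32 in the first block and 0.064, -0.84, -0.68, -0.064 and 0.43 in the second. Every KO array was below every WT array, though the highest KO array (0.433) and the lowest WT array (0.441) almost met, and KO LPS replicates 4 and 5 were far below the rest. Both genotypes were far above saline, where the means were -2.41 ± 0.20 (SD, n = 4) in WT and -2.37 ± 0.060 in KO. Lcn2 thus rose with LPS by 3.41 in WT (adjusted p = 3.96e-12) and by 2.30 in KO (adjusted p = 4.75e-09).

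The Lcn2 difference between genotypes after LPS was -0.74 within arrays 1 to 11 and -0.95 within arrays 12 to 22. Its adjusted p was 0.0722, and it ranged from 0.0164 to 0.0444 in 4 of the fits that treated the block or the arrays differently: without the block, with the array number as a covariate, with the block as a random effect and with array quality weights. Lcn2 was called in 7 of 29 alternative fits, Map3k8 in 8, Tmem252 in 7 and Tgm2 in 5. After saline the KO minus WT difference was 0.23 ± 0.21. The interaction was -1.11 ± 0.25 with an unadjusted p of 0.000219, but no gene passed adjustment in the interaction (0 of 19935, 0.0%; 452 genes, 2.27%, at an unadjusted p under 0.05).

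STAT3, the factor below IL-6, and C/EBP factors act through known DNA motifs. Lcn2 had the largest difference, and Tmem252, Map3k8, Tgm2 and Sbno2 also had adjusted p-values just above the threshold. Promoter sequences are shown for Lcn2, Tmem252 and Sbno2, and not for Map3k8 and Tgm2. They are the 250 bases before the start site in RefSeq (GRCm38.p6), read 5′ to 3′ on the gene's strand, with capitals for a match to the STAT motif TTCNNNGAA or the C/EBP motif TTGCNNAA, searched on both strands.
Lcn2, chr2:32387740-32387989, minus strand: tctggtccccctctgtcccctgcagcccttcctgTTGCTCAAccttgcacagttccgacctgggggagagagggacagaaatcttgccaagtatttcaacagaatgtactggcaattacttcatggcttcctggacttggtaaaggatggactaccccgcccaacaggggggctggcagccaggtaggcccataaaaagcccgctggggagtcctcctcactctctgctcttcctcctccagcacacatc
Tmem252, chr19:24673758-24674007, plus strand: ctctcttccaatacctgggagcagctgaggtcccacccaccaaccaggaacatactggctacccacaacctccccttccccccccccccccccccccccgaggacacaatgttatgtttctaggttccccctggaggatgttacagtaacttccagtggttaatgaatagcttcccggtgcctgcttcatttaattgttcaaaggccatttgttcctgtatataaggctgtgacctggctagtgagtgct
Sbno2, chr10:80102703-80102952, minus strand: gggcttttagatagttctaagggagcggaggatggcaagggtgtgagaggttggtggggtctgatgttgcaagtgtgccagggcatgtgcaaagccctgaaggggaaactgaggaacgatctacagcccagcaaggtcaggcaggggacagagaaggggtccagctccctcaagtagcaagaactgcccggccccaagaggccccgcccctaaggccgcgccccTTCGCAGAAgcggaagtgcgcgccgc
Sbno2, second start site, chr10:80101188-80101437, minus strand: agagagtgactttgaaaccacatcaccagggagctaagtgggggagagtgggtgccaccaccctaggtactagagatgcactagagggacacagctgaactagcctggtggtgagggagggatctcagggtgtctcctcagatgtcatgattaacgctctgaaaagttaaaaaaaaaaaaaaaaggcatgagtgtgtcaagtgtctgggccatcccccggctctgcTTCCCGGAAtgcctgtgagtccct
The Lcn2 stretch held a C/EBP match at -216 to -209 from the start and no STAT match. Each Sbno2 stretch held a STAT match close to the start, at -26 to -18 and at -24 to -16, and the Tmem252 stretch held neither motif.

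Of the 10 leading lower genes, 6 had entries in the promoter table, with 8 promoters among them. The STAT motif was in 2 of the 8, against 7.02% of all 32851 promoters of the same length. Both were start sites of Sbno2, so 1 of the 6 genes held it. The C/EBP motif was in 1 of the 8, against 9.56%. An NF-kB motif was in 1 of the 8, a Sbno2 promoter, against 3.9%. Of the 12 leading higher genes, 9 had entries with 13 promoters, and none of the 3 motifs was in them. A match is a string of letters in this window and does not show that a factor binds there.

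Tmem252 encodes a small transmembrane protein. Its WT LPS arrays ran from 0.46 through a median of 0.76 to 0.96, and its KO LPS arrays from -0.41 through 0.18 to 0.47. In 6 of 7 KO arrays the value was below the lowest WT array, and KO LPS replicate 7 reached into the WT range. The difference was -0.61 ± 0.11 (1.52-fold lower; adjusted p = 0.0722), with -0.0012 ± 0.14 after saline. LPS raised Tmem252 by 1.42 in WT and by 0.81 in KO, both called. Without KO LPS replicate 7 the difference was -0.67 (adjusted p = 0.00519), and 8 genes were called in all. That was the lowest adjusted p of Tmem252 in 29 alternative fits, of which 7 called it and 22 did not.

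Map3k8 encodes the kinase Tpl2, which links Toll-like and tumour necrosis factor receptors to the MAP kinase ERK. Its KO LPS arrays ran from -0.17 through 0.024 to 0.18, and its WT LPS arrays from 0.26 through 0.42 to 0.69, with no overlap. The difference was -0.42 ± 0.079, and it was -0.34 within the first block and -0.44 within the second. After saline it was -0.081 ± 0.10.

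Tgm2 encodes tissue transglutaminase, a protein cross-linking enzyme. The KO LPS arrays ran from -0.30 through 0.014 to 0.30, and the WT LPS arrays from 0.18 through 0.61 to 0.73. The groups overlapped over all 14 arrays, since 4 of 7 KO arrays were below the lowest WT array, and within the first block KO was entirely below. The difference was -0.39 ± 0.074, with 0.029 ± 0.097 after saline.

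Sbno2, a transcriptional coregulator known as a STAT3-dependent gene in macrophages, differed by -0.33 ± 0.065 (adjusted p = 0.0749). It ran from -0.25 to 0.32 in KO and from 0.14 to 0.81 in WT. KO was entirely below WT within each block, and the overlap came from comparing the first block's KO arrays with the second block's WT arrays. LPS raised Sbno2 by 0.58 in WT (adjusted p = 5.62e-06), and in KO the LPS contrast was 0.23 (adjusted p = 0.151). The interaction for Sbno2 was -0.35 (unadjusted p = 0.00179) and was not called.

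The other 5 leading lower genes had adjusted p-values from 0.195 to 0.281. Adamts9, a secreted metalloprotease, was at -0.43 ± 0.093 and ran from -0.41 to 0.22 in KO against 0.28 to 0.60 in WT, with no overlap. Akap12, a scaffold for protein kinase A, was at -0.33 ± 0.073, and Slfn4, a member of the interferon-inducible Schlafen family, at -0.40 ± 0.093. Rasip1, a regulator of small GTPases in endothelial cells, was at -0.27 ± 0.061, with KO below WT on all 14 arrays. Il23a, the p19 subunit of interleukin-23, was at -0.20 ± 0.043 and stood apart from the other 9: LPS did not raise it in WT (-0.038), and it fell with LPS in KO by 0.21 (adjusted p = 0.0135).

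**Figure D3:**
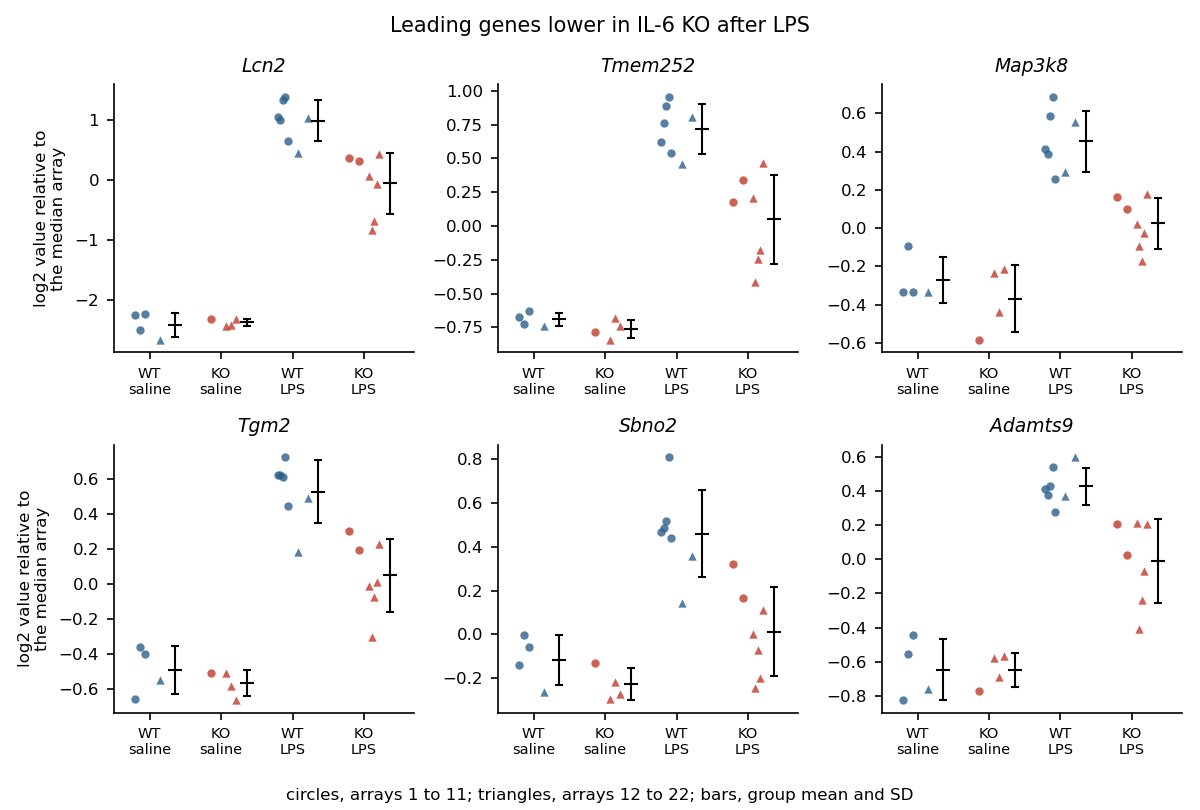
Log2 values relative to the median array (y axis) for Lcn2, Tmem252, Map3k8, Tgm2, Sbno2 and Adamts9 in the 4 groups (x axis), with circles for arrays 1 to 11, triangles for arrays 12 to 22 and bars for the group mean and SD. In all 6 genes the LPS means of both genotypes are above the saline means and the KO LPS mean is below the WT LPS mean, and the saline bars of KO and WT overlap.

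Beyond Abhd1 and Galnt11, the 10 leading genes on the higher side are those with the smallest p among genes not called. Psmb5, a catalytic subunit of the proteasome, ran from 0.041 through 0.14 to 0.22 in KO and from -0.31 through -0.16 to 0.0020 in WT, with no overlap. Its difference was 0.26 ± 0.048 (adjusted p = 0.0722), with 0.17 ± 0.063 after saline. Mrpl2, a protein of the mitochondrial ribosome, was at 0.21 ± 0.045 (adjusted p = 0.195), again with no overlap. Rrs1, a ribosome assembly factor, was at 0.36 ± 0.078 (adjusted p = 0.195) and at 0.50 ± 0.10 after saline (adjusted p = 0.336), so its difference was not smaller without LPS.

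Abcb1a, the P-glycoprotein efflux pump of the blood-brain barrier, ran from -0.19 through -0.024 to 0.11 in KO and from -0.62 through -0.37 to -0.16 in WT. A KO array was below the highest WT array, and 6 of 7 KO arrays were above all WT arrays. The difference was 0.31 ± 0.068 (adjusted p = 0.195), and with LPS Abcb1a fell by 0.57 among WT and by 0.33 among KO arrays, both called. Pecam1, the endothelial adhesion molecule CD31, was at 0.22 ± 0.050 (adjusted p = 0.281) with no overlap, and fell with LPS in WT by 0.22 (adjusted p = 0.0263). Cav1, the coat protein of caveolae, was at 0.26 ± 0.065 (adjusted p = 0.490). The remaining 4 were Nhlrc3 at 0.19, the prohibitin Phb2 at 0.20, the heme-binding protein Hebp1 at 0.19 and the chaperone-associated Hypk at 0.22, with adjusted p-values from 0.281 to 0.490. Of the 12 leading higher genes, 3 fell with LPS in WT by a call (Abcb1a, Pecam1 and Cav1) and 1 in KO (Abcb1a), and 0.487% and 0.356% of all genes did so.

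**Figure D4:**
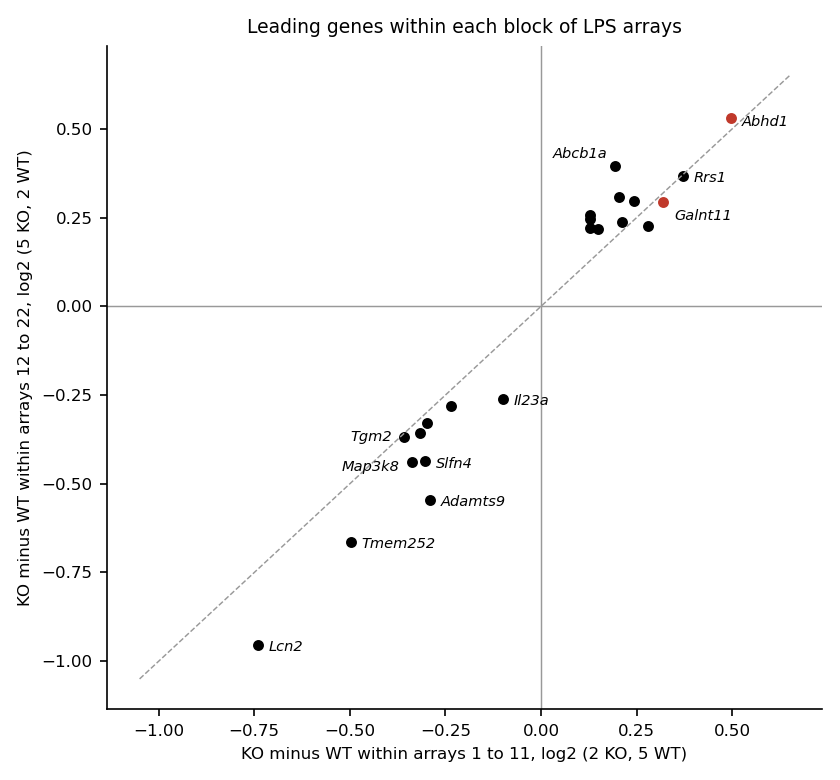
KO minus WT differences (log2) of the 12 leading higher and 10 leading lower genes within arrays 1 to 11 (x axis; 2 KO, 5 WT) and within arrays 12 to 22 (y axis; 5 KO, 2 WT), with called genes in red and a dashed line of equality. These genes were picked on both blocks together, so their signs were bound to match in most cases, and Lcn2 is at -0.74 and -0.95.

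The IL-6 family and its receptors held 16 measured genes, none called between the genotypes, with a median difference of -0.038 against 0.0030 over all genes. At an unadjusted p under 0.05, 3 were lower in KO and 0 higher, where 1.74% and 3.43% of all genes were. The largest of these differences was in Osmr, the oncostatin M receptor that shares gp130, at -0.46 ± 0.13 (adjusted p = 0.674; exact permutation p = 0.0317). Osmr ran from -0.41 through 0.020 to 0.55 in KO and from 0.13 through 0.47 to 0.96 in WT, so the groups overlapped, with 5 of 7 KO arrays below the lowest WT array. LPS raised it in both genotypes, by 1.23 in WT and 0.96 in KO.

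The other 2 were the ligand Lif at -0.15 ± 0.053 (adjusted p = 0.859) and the receptor Il6ra at -0.11 ± 0.052 (adjusted p = 0.960). Il6ra rose with LPS by 0.30 in WT and by 0.24 in KO, both called, and ran from -0.11 to 0.21 in KO and from 0.077 to 0.33 in WT. The shared subunit Il6st was at -0.015 ± 0.051, with a 95% interval of -0.12 to 0.091 (exact permutation p = 0.67), and the leukaemia inhibitory factor receptor Lifr at -0.060 ± 0.056. The ligands Osm (-0.062), Il11 (0.0050), Clcf1 (-0.13) and Ctf1 (0.012) had adjusted p-values of 0.963 or above. The median of the family was 0.022 within arrays 1 to 11 and -0.072 within arrays 12 to 22.

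The JAK, STAT and SOCS genes downstream held 28 measured members. At an unadjusted p under 0.05, where 1.74% of all genes were lower and 3.43% higher, 5 were lower in KO and 0 higher, with a median of -0.021. They were Stat3 at -0.19 ± 0.049 (adjusted p = 0.493), the kinase Pim1 at -0.16 ± 0.056, the feedback inhibitors Socs2 at -0.16 ± 0.065 and Socs3 at -0.16 ± 0.070, and the phosphatase Ptpn1 at -0.13 ± 0.061.

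Stat3 ran from -0.22 through 0.00 to 0.067 in KO and from 0.065 through 0.18 to 0.38 in WT. A single KO array overlapped the WT range, and 6 of 7 were below it. The exact permutation test for Stat3 gave an unadjusted p of 0.0136. Stat3 rose with LPS in WT by 0.29 (adjusted p = 0.00149), and in KO the contrast was 0.14 (adjusted p = 0.362). The interaction for Stat3 was -0.14 ± 0.075 (unadjusted p = 0.066), so the LPS effects were not shown to differ.

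Socs3 ran from -0.21 through -0.014 to 0.22 in KO and from 0.11 through 0.16 to 0.30 in WT, overlapping, with an exact permutation p of 0.0748. LPS did not raise it by a call in either genotype, with contrasts of 0.26 in WT (adjusted p = 0.103) and 0.15 in KO (adjusted p = 0.751).

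The acute-phase and STAT3-linked list held 32 measured genes. Among them is Olfr48, an olfactory receptor gene that entered through a shared synonym and is no acute-phase gene. The counts of members and the medians below include it, but it did not reach an unadjusted p under 0.05. At an unadjusted p under 0.05, 11 were lower in KO and 0 higher, where 1.74% and 3.43% of all genes were, and the median was -0.089. The difference was below 0 in 25 of the 32, as in 47.9% of all genes. The list was written with earlier results of these data known, and Lcn2, Map3k8 and Tgm2 were among its entries for that reason. Without those 3 genes, 8 of 29 were lower at that p, 0 were higher, and the median was -0.062. None of these was called.

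Beside Lcn2, Map3k8 and Tgm2, the 8 were Il4ra, the interleukin-4 receptor chain, at -0.20 ± 0.048, the metalloreductase Steap4 at -0.34 ± 0.081, the transcription factors Cebpb at -0.25 ± 0.065 and Cebpd at -0.20 ± 0.067, the protease inhibitor Serpina3n at -0.26 ± 0.068, the metallothionein Mt1 at -0.21 ± 0.068, the heme carrier hemopexin (Hpx) at -0.13 ± 0.052 and the serum amyloid Saa3 at -0.19 ± 0.084. Adjusted p-values ran from 0.281 for Il4ra to 0.958 for Saa3. Of all 32 genes, LPS raised 15 by a call in WT and 11 in KO, as it did 1.68% and 1.23% of all genes. Among the 8, 7 rose by a call in WT, the exception being Hpx at 0.031, and 4 in KO (Il4ra, Steap4, Mt1 and Cebpd). The 8 were picked on the same LPS arrays that these contrasts use. Serpina3n, a marker of reactive astrocytes, was at 0.41 with LPS in WT (adjusted p = 0.00134) and at 0.061 in KO (adjusted p = 0.992). No gene was called in the interaction, so these LPS effects were not shown to differ between genotypes.

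The median of the acute-phase list was -0.071 within arrays 1 to 11 and -0.085 within arrays 12 to 22, and it stayed below 0 in every fit run, between -0.18 and -0.042. Its mean per array ran from -0.14 through 0.061 to 0.17 in KO and from 0.027 through 0.20 to 0.29 in WT, so the groups overlapped. After saline its median difference was -0.012.

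**Figure D5:**
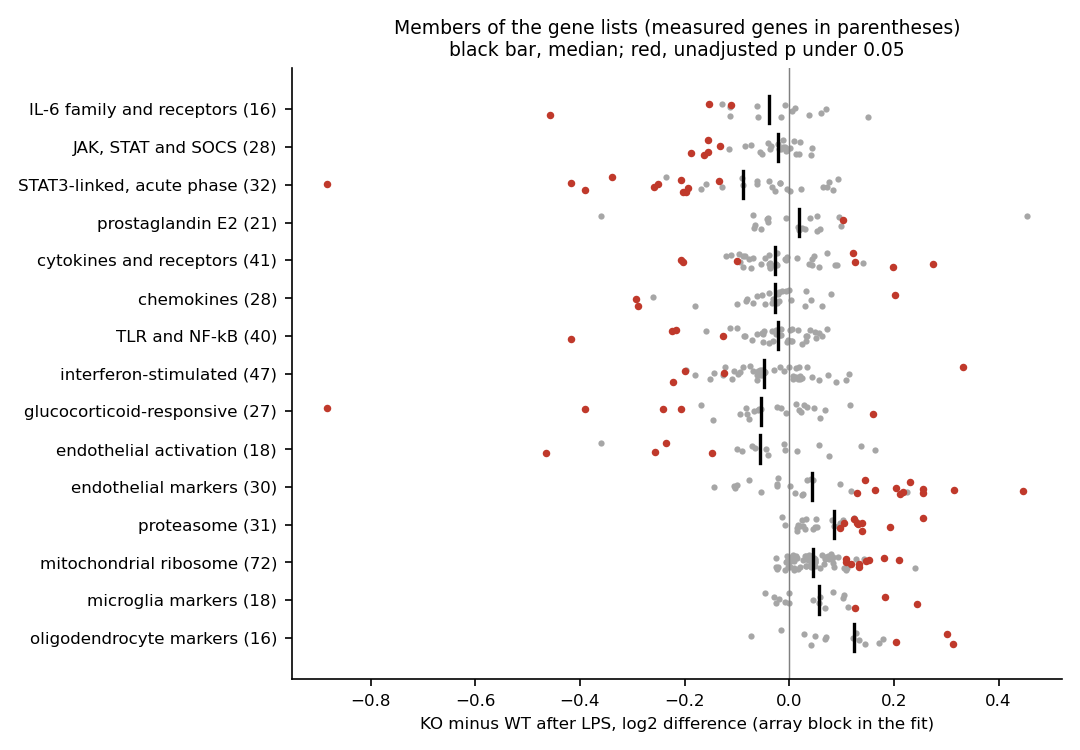
KO minus WT differences after LPS (x axis, log2, array block in the fit) of the measured members of 15 gene lists (y axis), with a black bar for the list's median and red for an unadjusted p under 0.05. The STAT3-linked acute-phase list has its median at -0.089 and 11 red points, all below 0, and the endothelial markers have 11 red points, all above 0.

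The prostaglandin E2 genes gave no call between the genotypes. Of 21 measured genes 0 were lower and 1 was higher in KO at an unadjusted p under 0.05, the thromboxane synthase Tbxas1 at 0.10 ± 0.044, and the median was 0.019. Over all genes, 1.74% were lower and 3.43% higher at that p. Ptgs2 ran from -0.62 through 0.21 to 0.84 in KO and from 0.0050 through 0.42 to 1.20 in WT. The groups overlapped widely, and the difference of -0.36 ± 0.20 had a 95% interval of -0.78 to 0.064 (adjusted p = 0.977; exact permutation p = 0.265). The LPS effect on Ptgs2 was 1.56 in WT and 1.35 in KO, both called. Ptges was at -0.040 ± 0.066 between genotypes; it rose with LPS in WT by 0.37 (adjusted p = 0.00323), and in KO the contrast was 0.19 (adjusted p = 0.412). The interaction for Ptges was -0.18 with an unadjusted p of 0.097. The receptor Ptger3, through which prostaglandin E2 acts on thermoregulatory neurons, was at -0.065 ± 0.043.

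Of 30 measured endothelial markers, genes typical of brain capillary cells, 11 were higher in KO and 0 lower at an unadjusted p under 0.05, where 3.43% and 1.74% of all genes were, and none was called. The difference was above 0 in 21 of the 30, as in 52.1% of all genes. The median was 0.044, and it was 0.056 within the first block and 0.074 within the second. Besides Abcb1a and Pecam1 they were the transporters Slco1a4 at 0.45 ± 0.13, Slco1c1 at 0.26 ± 0.073, Abcg2 at 0.26 ± 0.087 and Slc7a5 at 0.14 ± 0.056, the receptors Tek at 0.20 ± 0.071 and Kdr at 0.16 ± 0.058, Itm2a at 0.23 ± 0.082 and the tight junction proteins Ocln at 0.13 ± 0.055 and Cldn5 at 0.21 ± 0.10.

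Of all 30 markers, 17 fell with LPS by a call in WT and 16 in KO, as did 0.487% and 0.356% of all genes. Of the 11, which were picked on the same WT LPS arrays that the WT contrast uses, 10 fell by a call in WT, Abcg2 being the exception at -0.34 (adjusted p = 0.0775). Slco1a4 fell by 1.44 with LPS in WT and in KO it fell by 1.07, while Cldn5 fell by 1.14 and 1.08. The mean of the 30 markers ran from -0.097 through -0.058 to 0.061 on KO arrays and from -0.16 through -0.13 to -0.071 on WT arrays. After saline the KO minus WT median of the list was 0.072, no smaller than after LPS. The number of members at an unadjusted p under 0.05 ranged from 9 to 13 higher and from 0 to 2 lower when single arrays were left out, and within arrays 1 to 11 alone it was 2 higher. Over all 19935 genes the fits without single arrays gave 459 to 1038 higher and 274 to 612 lower. Without the 7 arrays above 1 in Gh, Prl or Ttr, 4 were higher and 4 lower, with a median of 0.039, beside 365 and 359 of all 19935 genes.

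Genes that endothelial cells switch on in inflammation gave no call between the genotypes. Of 18 measured, 4 were lower in KO and 0 higher at an unadjusted p under 0.05, where 1.74% and 3.43% of all genes were. The difference was below 0 in 13 of the 18, as in 47.9% of all genes, and the median was -0.055. Without the 7 arrays above 1 in Gh, Prl or Ttr, 2 were lower and 0 higher, with a median of -0.041, beside 359 and 365 of all 19935 genes. The 4 were Ch25h, the cholesterol 25-hydroxylase, at -0.47 ± 0.15 (adjusted p = 0.7996), the adhesion molecule E-selectin (Sele) at -0.24 ± 0.082, the vasoconstrictor Edn1 at -0.15 ± 0.051 and the urokinase receptor Plaur at -0.26 ± 0.10. Ch25h rose with LPS by 1.33 in WT and 1.01 in KO, both called.

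The other cytokine and innate immune genes gave no call between the genotypes. Of 41 cytokines and receptors 3 were lower (Il17ra, Il4ra and Csf2) and 4 higher (Il10rb, Tnfsf10, Csf1r and Il10ra) at an unadjusted p under 0.05, where 1.74% and 3.43% of all genes were. Il17ra, the interleukin-17 receptor, was at -0.21 ± 0.049 (adjusted p = 0.281). It rose with LPS in WT by 0.39 (adjusted p = 3.11e-05), against a contrast of 0.15 in KO (adjusted p = 0.351). The interaction for Il17ra was -0.25 (unadjusted p = 0.00347) and was not called. Il1b was at -0.073 ± 0.11 with a 95% interval of -0.31 to 0.16, and Tnf at -0.053 ± 0.048 with an interval of -0.15 to 0.046; the genotypes overlapped in both genes. Il1b did not rise by a call with LPS in either genotype.

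Of 28 chemokines, Ccl12 (-0.29 ± 0.098) and Cxcl11 (-0.29 ± 0.12) were lower and Cxcl12 (0.20 ± 0.069) higher at that p, beside the same 1.74% and 3.43% of all genes. The Toll-like receptor and NF-kB list had 4 of 40 lower and 0 higher, against these same shares: Map3k8, the adaptor Myd88 at -0.22 ± 0.076, the LPS co-receptor Cd14 at -0.22 ± 0.087 and the inhibitor Irak3 at -0.13 ± 0.060.

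Interferon-responsive genes had large LPS effects in both genotypes and small differences between them, none called. The median LPS effect over 47 interferon-stimulated genes was 0.74 in WT and 0.67 in KO, and the KO minus WT median was -0.049. At an unadjusted p under 0.05, 3 were lower (Ifitm2, Irf9 and Mx2) and 1 higher (AW112010), where 1.74% and 3.43% of all genes were. The 10 measured guanylate-binding protein and immunity-related GTPase genes had median LPS effects of 1.76 and 1.52, and 0 of them reached that p between genotypes. The LPS effect on Gbp4 was 2.90 in WT and 3.07 in KO, and its genotype difference was 0.12 ± 0.080.

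Proteasome and mitochondrial ribosome genes gave no call between the genotypes. Of 31 proteasome subunits 9 were higher and 0 lower at an unadjusted p under 0.05, where 3.43% and 1.74% of all genes were, with a median of 0.086. The median was 0.0050 within arrays 1 to 11 and 0.14 within arrays 12 to 22. Of 72 mitochondrial ribosome proteins 9 were higher and 0 lower, with a median of 0.046, and -0.013 and 0.11 within the blocks. The direction of the mitochondrial ribosome median therefore changed between blocks. The array-level mean of the proteasome list ran from -0.13 to 0.16 in KO and from -0.18 to 0.061 in WT, an overlap over most of the range.

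Markers of other cell types were compared in the same way, as differences between arrays. Over all genes, 3.43% were higher and 1.74% lower at an unadjusted p under 0.05. Oligodendrocyte markers had the largest median of the cell type lists, 0.12 over 16 genes, with 3 higher (Aspa, Opalin and Mog) and 0 lower at an unadjusted p under 0.05. That median was 0.022 within arrays 1 to 11 and 0.23 within arrays 12 to 22, and 0.13 after saline. The list's mean per array ran from -0.17 to 0.27 in KO and from -0.25 to 0.052 in WT. Microglia markers had 3 of 18 higher (the fractalkine receptor Cx3cr1 at 0.24 ± 0.066, Olfml3 and Csf1r) and a median of 0.058, with array means from -0.068 to 0.034 in KO and from -0.11 to -0.021 in WT.

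Neuron markers (17 genes, median 0.019) and astrocyte and tanycyte markers (19 genes, median -0.0070) had 0 members at that p, with the smallest in Celf4 (-0.078) and S100b (0.11), and hypothalamus markers had 1 of 19, the neuropeptide Hcrt at 0.30 ± 0.10. Blood cell markers had 1 of 22, Cd3g at -0.083 ± 0.036, and pericyte and fibroblast markers 2 of 17, Slc6a13 and Vtn, both higher. The pituitary list had 1 in each direction, Chgb higher and Fshb lower, the thalamus and cortex list 1 higher (Tbr1), and the choroid plexus list 0, with the smallest p in Kcnj13 (0.32 ± 0.19). Beside the 3.43% higher and 1.74% lower over all genes, a count of 1 in lists of this size is not read as a result. Without the 4 arrays named above (WT LPS replicate 5, KO LPS replicate 3, WT saline replicate 1 and KO saline replicate 2), the acute-phase list had 12 members lower and 1 higher at an unadjusted p under 0.05 with a median of -0.088, the endothelial markers 10 higher and 1 lower (median 0.056), the proteasome genes 6 higher and 0 lower (0.068) and the oligodendrocyte markers 5 higher and 0 lower (0.17). Without all 7 arrays above 1 in Gh, Prl or Ttr, the acute-phase list had 9 lower and 1 higher (median -0.042), the proteasome genes 3 higher and 0 lower (0.048), the mitochondrial ribosome genes 4 higher and 0 lower (0.041), the oligodendrocyte markers 3 higher and 0 lower (0.15) and the microglia markers 1 higher and 0 lower (0.058). Over all 19935 genes, 613 were higher and 413 lower at that p without the 4 arrays, and 365 higher and 359 lower without the 7. The part of cell composition in the differences of the leading genes was not tested.

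Among lists tied to temperature and stress, 2 of 18 heat-shock and cold-response genes were higher in KO at an unadjusted p under 0.05, the cold-inducible RNA-binding proteins Cirbp at 0.20 ± 0.059 (adjusted p = 0.702) and Rbm3 at 0.13 ± 0.049 (adjusted p = 0.907), and 0 were lower. Their differences after saline were 0.11 and 0.14. Over all genes, 3.43% were higher and 1.74% lower at that p, for every count in this paragraph. In lists of this size a count of 1 is not read as a result about the list. The thermoregulation and neuropeptide list had 1 of 47 in each direction, Hcrt higher and the melanocortin receptor Mc3r lower, with a median of -0.0050. Glucocorticoid-responsive genes had 4 of 27 lower and 1 higher, and 3 of those 4, Lcn2, Tgm2 and Mt1, are also on the acute-phase list. Of 31 immediate-early genes 3 were lower (Egr1, Ier5 and Fos) and 1 higher (Jund). Clock genes (20) and GABA and glutamate receptors (34) had 0 in either direction, and the smallest p in them belonged to Bhlhe40 (-0.090) and Grin2a (0.11). Of 16 antigen-processing and immunoproteasome genes 1 was higher, Psmb10 at 0.15 ± 0.058. Of 19 genes on the complement list, which also holds Olfr48 through a shared synonym, 1 was lower, properdin (Cfp) at -0.10 ± 0.043.

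The interaction, which asks whether the genotype difference after LPS differs from that after saline, called no gene. Its smallest unadjusted p-values belonged to Bcl6b (0.36 ± 0.079), Dppa5a (0.40 ± 0.096) and the pseudogene H2bu1-ps (0.20 ± 0.051) on the positive side and to Lcn2 (-1.11), Rasip1 (-0.35) and Tgm2 (-0.42) on the negative side. Bcl6b, an endothelial transcription factor, was at 0.15 ± 0.051 after LPS and at -0.21 ± 0.066 after saline. For 9 of the 10 leading lower genes the saline difference was between -0.081 and 0.086, the exception being Lcn2 at 0.23. With 4 arrays a group, the median half-width of a 95% interval after saline was 0.14.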

How the data were processed

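The values analysed are those the authors deposited on a log2 scale, 28815 probe sets by 22 arrays. Per the submitters' processing notes they were made with RMA (background correction, quantile normalization and probe summary), version not stated. The build and annotation release are not given in the sources used here. Medians of probe sets across arrays were all 0, none farther off than 7.02e-07, so the values are centred and hold no levels. No source gives the log base; base 2 was used since 99.94% of 619799 values checked were whole single-precision steps of log2-sized levels, within a tolerance of 0.03 of a step.

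Probe sets were named through GEO's platform annotation, with current symbols from RefSeq (GRCm38.p6) by gene ID: 21780 had 1 symbol, of which 21689 matched, 1605 had several and 5430 none, and these 7035 were left out of gene tests. Probe sets of a gene were averaged (998 genes had several). List entries with no measured gene of that symbol were matched through RefSeq synonyms, which put the olfactory receptor gene Olfr48 on the acute-phase and complement lists. The fit used limma 3.58.1 in R 4.3.3 with default empirical Bayes, two-sided contrasts and Benjamini-Hochberg adjustment over 19935 genes, and was tested on simulated data. The exact permutation test moved genotype labels within each block and averaged the block differences. The members, the 33 gene lists and the tests were chosen with earlier results of these data known, so no list is independent evidence of its direction, and lists are described by counts and medians without a set test. Replicates were numbered in deposition order and pair no arrays. The genes named are those called, the 10 smallest p per direction beyond them, the smallest p of each list and per direction of the interaction, and a fixed set of IL-6 pathway and fever genes. Other list members with an unadjusted p under 0.05 are also named, and were chosen after their values were seen, as were Gh, Prl and Ttr. Promoters had been meant for genes called lower in KO; as none was called, those of 3 leading lower genes are shown.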

Additional observations from a re-analysis of the deposited data

Results flagged for a closer look

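Each of 59 genes was looked at in each of the 4 groups, and 13 of 236 group values had 1 array far from the others of its group by Dixon's criterion, close to the 1 in 20 that chance gives. Among the LPS arrays, WT LPS replicate 5 was high in Bcl6b at 0.16 and low in Cirbp at -0.49, and WT LPS replicate 6 was low in Hebp1 at -0.26. KO LPS replicate 3, which was also high in pituitary hormones, was low in Grin2a at -0.30 and in Slc6a13 at -0.72, and KO LPS replicate 6 was low in Tbxas1 at -0.16. Among the saline arrays, KO saline replicate 1 was low in Rrs1 at 0.22 and in Fshb at -0.10 and high in Bhlhe40 at 0.34, and KO saline replicate 4 was high in Socs3 at 0.16. WT saline replicate 1 was high in Fshb at 0.24, WT saline replicate 2 was high in Map3k8 at -0.093 and WT saline replicate 3 was high in Akap12 at -0.21.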

How the results depend on the processing

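The count of genes called between KO and WT after LPS (2) was 8 without the block, 6 with the array number as a covariate, 7 with the block as a random effect, 7 with the less variable genes left out (those below the median SD), 11 with array quality weights, 1 in the LPS arrays alone with or without the block, 0 in either block alone and 1 without WT LPS replicate 5, KO LPS replicate 3, WT saline replicate 1 and KO saline replicate 2, and 1 without all 7 arrays above 1 in Gh, Prl or Ttr. Leaving out single arrays gave 1 to 8: 8 without KO LPS replicate 7, 5 without WT LPS replicate 5, and 1 without KO LPS replicate 1, 2 or 4 or WT LPS replicate 2, 4 or 6. The count near Il6 (2) was 1 in the LPS arrays alone with or without the block, 0 in either block alone, 1 without those 4 arrays, 1 without those 7, and 1 to 2 with single arrays left out. Of 59 genes, 56 kept their direction in every alternative that gave them a value, all 29 for 52 genes and 28 for 7. Il1b was at 0.033 in arrays 12 to 22 and at 0.021 without the 7 arrays. Celf4 ran from -0.11 to 0.0070 with single arrays left out (0.0070 without WT LPS replicate 6). Il6st was at 0.0060 in arrays 12 to 22 and ran from -0.040 to 0.0060 with single arrays left out, at or above 0 without KO LPS replicate 2 or WT LPS replicate 3, 4 or 7. The cause was not tested. The interaction called 0 genes in every fit run. The lists' counts under each alternative, the acute-phase list without 3 genes, and the fit without the 7 arrays were added after seeing the data. No paired analysis was possible because the array numbers in the labels differ for every sample and pair none across groups. The number of arrays limits the precision, and signal over background could not be judged from centred values.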

Other observations

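The 7035 probe sets without a single gene symbol were fitted in the same way, with adjustment over all probe sets. None was called (0). In the limma fit 264 of the 7035 had an unadjusted p under 0.05, a level that 5.17% of all genes reached. The smallest p was 3.41e-05 (adjusted p = 0.128). That probe set was lower in KO, with a difference of -0.57 after LPS, and -0.56 and -0.59 within the first and second block.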
